A study of Mus musculus with 12 samples.

Results

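The core pluripotency transcription factors were described in 12 single mouse morulae, the embryonic stage just before the blastocyst forms. The list held Pou5f1, Nanog, Sox2, Esrrb, Tfcp2l1, Zfp42, Utf1, Sall4, Klf2 and Klf4, chosen by name with earlier results of these data known. Of these 10 genes, 9 were matched to at least 1 probe, with 13 probes in all, out of 41174 probes on the array and 19038 features tested. Nanog was not analysed here, since no probe was matched to it. All 9 matched genes passed the filter on dim probes, which asks for a signal well above background in 3 or more of the 4 embryos of some class. The measured genes lie on chromosomes 17 (Pou5f1), 3 (Sox2), 12 (Esrrb), 1 (Tfcp2l1), 8 (Zfp42 and Klf2), 7 (Utf1), 2 (Sall4) and 4 (Klf4). Each gene is represented by its brightest probe, and the other probes of Tfcp2l1, Sall4 and Klf2 are given beside it.

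All embryos were of the strain (C57BL/6 x DBA/2) F1, were cultured in KSOM medium and were collected 72 h after activation. The siXist clones (4) were male embryos cloned from Sertoli cells, the supporting cells of the testis, and injected with an siRNA against Xist 6 to 7 h after activation. The siCont clones (4) were male Sertoli cell clones injected with a control siRNA at the same time. The IVF embryos (4) came from in vitro fertilization, and the labels give no injection for them. IVF embryos 2 and 4 were female and IVF embryos 1 and 3 were male. A clone therefore differed from an IVF embryo in nuclear origin and in injection, and from IVF embryos 2 and 4 also in sex, and these cannot be told apart. The 3 classes lay on 3 slides, 1 slide and scan to a class, so slide and class cannot be told apart either. Each array held the RNA of 1 embryo, and the submitters call the clones of a class biological replicates.

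Levels are log2 signals relative to the 75th percentile of the array, so 0 is the level of a probe at that percentile. Differences are in log2 with the SE of a limma fit to all 12 arrays, and p-values are two-sided, with Benjamini-Hochberg adjustment over all 19038 features at a threshold of 0.05. The share of probes well above background ranged over arrays from 50.7% to 61.4%, and the signal at the 75th percentile from 507.1 to 1133.2. Xist, the targeted RNA, had levels of 1.72, 1.36, 2.18 and 2.45 in siXist clones 1 to 4, against 5.65, 4.74, 4.94 and 4.56 in siCont clones 1 to 4. It was lower in every siXist clone, although the adjusted p of the limma fit was 0.110. All 9 morula marker genes on a fixed list were well above background in each of the 12 embryos. That list includes Pou5f1, a gene described here. Of the 19038 features tested, 14648 were well above background in all 4 IVF embryos.

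Pou5f1 (also called Oct4), Sox2 and Nanog form the centre of the transcription factor network that holds embryonic stem cells in the pluripotent state. Esrrb, Tfcp2l1, Klf2 and Klf4 belong to the naive part of this network, which LIF signalling feeds. Sall4 is a zinc finger partner of Pou5f1, while Zfp42 (Rex1) and Utf1 are downstream genes used as markers of the state. In the mouse embryo Pou5f1 is present in all morula cells, and Sox2 is among the first genes to be restricted to the inside cells that give the inner cell mass.

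In the cloned morulae most of these genes had lower levels than in IVF embryos, and none of the differences passed the adjusted threshold. On this scale the brightest probes of Zfp42 and Tfcp2l1 were below every IVF embryo in all 8 clones, and that of Pou5f1 in 6 of 8. The other 2 probes of Tfcp2l1 overlapped the IVF embryos. Sox2 was well above background in 1 of 4 siXist clones, 1 of 4 siCont clones and 4 of 4 IVF embryos. Klf2, Klf4 and Sall4 had clones on both sides of the IVF range. Between siXist and siCont clones the 9 genes were divided, 5 lower and 4 higher in siXist clones, while 60.2% of all features were lower.

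**Figure D1:**
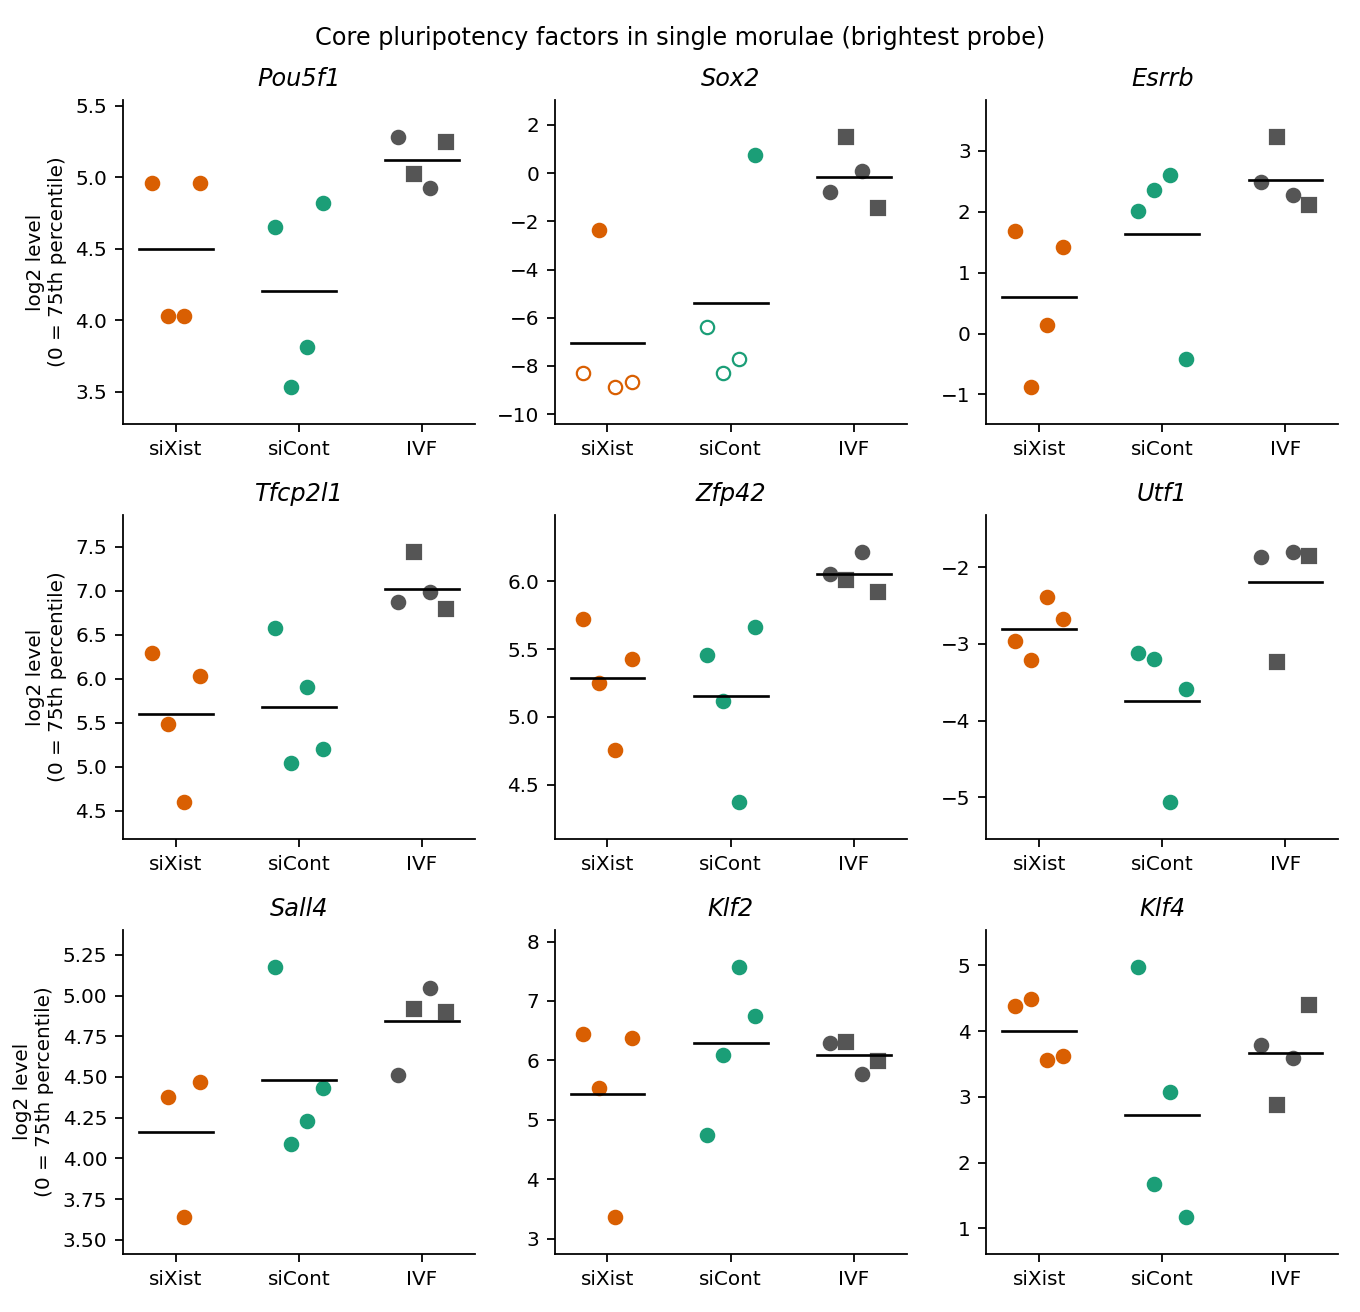
Level of each gene in each embryo (y axis, log2 signal relative to the 75th percentile of the array; its range differs between panels) for siXist clones, siCont clones and IVF embryos. Each point is 1 embryo, squares are female, open points were not well above background, and black bars are class means. On the brightest probes, shown here, all 8 clones lie below the 4 IVF embryos for Tfcp2l1 and Zfp42.

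The count of called members was 0 of 9 for siXist against siCont clones, where 0.0105% of all features were called. It was also 0 of 9 for siXist clones against IVF embryos (0.578% of all features called) and 0 of 9 for siCont clones against IVF embryos (0.415%). At an unadjusted p under 0.05, 0 members differed between siXist and siCont clones, against 13.9% of all features. For siXist clones against IVF embryos 3 of 9 were lower at that unadjusted p (Sox2, Esrrb and Tfcp2l1), against 8.84% of all features. For siCont clones against IVF embryos 5 of 9 were lower (Pou5f1, Sox2, Tfcp2l1, Zfp42 and Utf1), against 6.73% of all features. The count of 5 depended on single embryos. It was 2 without IVF embryo 1, 1 without IVF embryo 2, 2 without IVF embryo 3, 3 without IVF embryo 4, 1 without siCont clone 2 and 2 without siCont clone 3. With the 2 male IVF embryos alone as the comparison it was 2. Both clone classes were set against the same 4 IVF embryos, so the 2 counts share their controls. Each of the 2 counts includes Sox2, which passed the filter on dim probes only through the IVF embryos, where it is high. Its place in them is therefore no support for lower levels in clones.

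The median difference of the 9 genes was -0.08 for siXist against siCont clones, beside -0.21 over all features. Against IVF embryos it was -0.68 in siXist clones, beside -0.23 over all features, and -0.91 in siCont clones, beside -0.04. Against IVF embryos 8 of 9 members were lower in siXist clones, where 61.7% of all features were lower. Against IVF embryos 8 of 9 members were lower in siCont clones, where 51.9% of all features were. The exception was Klf4 in siXist clones and Klf2 in siCont clones. These directions are those after scaling to the 75th percentile. With quantile normalization, with or without normexp background correction, 8 of 9 members were also lower in each clone class. In the value table of the authors 8 of 9 were lower in siXist clones and 9 of 9 in siCont clones. For siCont minus IVF the median of all features in that table was -1.13, and Klf2 was at -0.90.

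**Figure D2:**
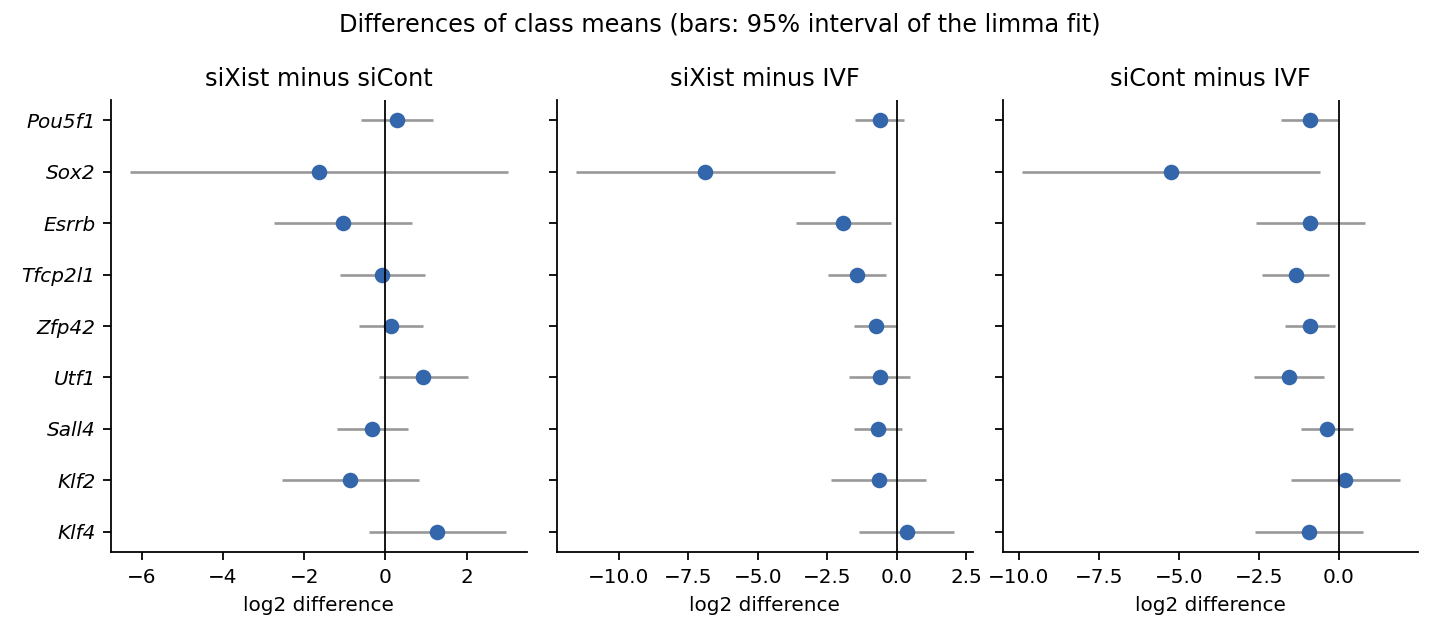
Difference of class means (x axis, log2) for each gene, for siXist minus siCont, siXist minus IVF and siCont minus IVF, with the 95% interval of the limma fit before adjustment. All 9 intervals for siXist minus siCont cross 0, and the interval of Sox2 is the widest in each panel.

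Pou5f1, the POU factor at the centre of the network, had levels of 4.96, 4.03, 4.03 and 4.96 in siXist clones 1 to 4. Levels in siCont clones were 4.65, 3.53, 3.82 and 4.82, and the IVF embryos had 5.28, 5.02, 4.92 and 5.25. The siCont clones lay below all IVF embryos without overlap, while siXist clones 1 and 4 reached the lowest IVF embryo. The class means were 4.50 ± 0.54 in siXist clones, 4.20 ± 0.63 in siCont clones and 5.12 ± 0.17 in IVF embryos (SD, n = 4 embryos each). In the limma fit siXist minus IVF was -0.62 ± 0.40 (SE, adjusted p = 0.508). For siCont minus IVF the fit gave -0.91 ± 0.40, a level 1.88-fold lower (limma adjusted p = 0.353). For siXist minus siCont the fit gave 0.29 ± 0.40, with a 95% interval from -0.59 to 1.17 (limma adjusted p = 0.747). The siXist and siCont clones overlapped.

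Sox2, the HMG box partner of Pou5f1, had levels of -8.30, -2.35, -8.86 and -8.66 in siXist clones 1 to 4. In siCont clones 1 to 4 they were -6.37, -8.27, -7.71 and 0.74, and the IVF embryos had -0.78, 1.49, 0.09 and -1.43. Among the clones, siXist clone 2 and siCont clone 4 were well above background, and siCont clone 4 lay within the IVF range. Sox2 passed the filter on dim probes only through the IVF embryos. All siXist clones were below all IVF embryos, and the siCont clones overlapped them through clone 4. In the limma fit siXist minus IVF was -6.89 ± 2.09 (SE, adjusted p = 0.199). The fitted siCont minus IVF difference was -5.25 ± 2.09 (limma adjusted p = 0.314). It was -7.29 without siCont clone 4 and -4.29 without siCont clone 2, and siXist minus IVF was -8.45 without siXist clone 2. Levels below background have no order, so the fit was repeated with dim values raised to a floor of -5.60, the highest of the lowest reliable signals over arrays. Then siXist minus IVF was -4.63 ± 1.47 (limma adjusted p = 0.211) and siCont minus IVF was -3.85 ± 1.47 (adjusted p = 0.296). The clone classes differed by -1.64 ± 2.09 as siXist minus siCont (limma adjusted p = 0.728). That value was -0.77 with the floor and 0.41 without siCont clone 4. In whole embryos, fewer cells that hold an RNA and less RNA per cell cannot be told apart.

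The detection pattern of Sox2 was set beside that of all features. Of 14648 features well above background in all 4 IVF embryos, 104 (0.71%) were so in 2 or fewer of the 8 clones. The cut of 2 clones matches Sox2 itself, so this share describes the pattern and does not test it. Features with the reverse pattern were not counted. Eomes, a T-box factor that marks the trophectoderm, the outer layer of the blastocyst, was likewise well above background in 1 of 4 siXist clones, 1 of 4 siCont clones and 4 of 4 IVF embryos. For Eomes siXist minus IVF was -5.97 (limma adjusted p = 0.032) and siCont minus IVF was -5.23 (adjusted p = 0.060), with signals below background as measured. With the same floor the values for Eomes were -4.41 ± 0.46 for siXist minus IVF (limma adjusted p = 0.00403) and -3.90 ± 0.46 for siCont minus IVF (adjusted p = 0.00774), so the floor turned the siCont comparison into a call. Eomes passed the filter on dim probes only through the IVF embryos, where it is high. The embryos differ between the genes, since Eomes was above background in siXist clone 4 and siCont clone 4 and Sox2 in siXist clone 2 and siCont clone 4. Cdx2, the other defining trophectoderm factor, had levels of 3.83, 3.04, 1.34 and 3.20 in siXist clones, 3.44, -2.93, -7.87 and 3.18 in siCont clones, and 4.37, 4.90, 5.13 and 4.48 in IVF embryos. Eomes and Cdx2 were picked from a list of 11 trophectoderm markers after their values were seen. Of the 11 markers, 8 were lower in siXist clones than in IVF embryos, with a median of -0.24, and 5 were lower in siCont clones, with a median of 0.01. Eomes was the 1 marker lower at an unadjusted p under 0.05 in siXist clones, and 0 were higher, where 8.84% of all features were lower and 5.05% higher. In siCont clones 3 were lower (Cdx2, Eomes and Tfap2a), against 6.73% of all features, and 1 was higher (Krt18), against 6.84%. Gata2 was the marker of this list that was not well above background in any IVF embryo. The summed linear level of the 11 trophectoderm markers lay between 139 and 296 in siXist clones, 182 and 271 in siCont clones, and 150.01 and 269 in IVF embryos. The 5 measured primitive endoderm markers, of 8 listed, summed to between 101 and 181 in siXist clones, 74.1 and 206 in siCont clones, and 191 and 273 in IVF embryos. In the same unit the 9 pluripotency factors summed to between 104 and 274 in siXist clones, 173 and 318 in siCont clones, and 329 and 400.1 in IVF embryos. Linear sums are set mostly by the brightest genes. In IVF embryos these were Tfcp2l1, Klf2 and Zfp42, with mean levels of 7.02, 6.09 and 6.05, against -0.16 for Sox2 and -2.19 for Utf1. Among the primitive endoderm markers Gata6 had a mean of 7.07 there. The part of these cell types in the Sox2 and Pou5f1 levels was not tested.

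Esrrb, an orphan nuclear receptor of the naive network, had levels of 1.69, -0.87, 0.14 and 1.42 in siXist clones 1 to 4. The siCont clones had 2.01, 2.35, 2.61 and -0.41, and the IVF embryos had 2.49, 3.23, 2.27 and 2.12. Every siXist clone was below every IVF embryo, whereas siCont clones 2 and 3 lay in the IVF range and siCont clone 4 was far below it. For siXist minus IVF the fit gave -1.93 ± 0.76, a level 3.81-fold lower (limma adjusted p = 0.303). Against IVF embryos, siCont clones differed by -0.88 ± 0.76 (limma adjusted p = 0.647), or by -0.20 without siCont clone 4. Between the clone classes siXist minus siCont was -1.05 ± 0.76, with a 95% interval from -2.75 to 0.66 (limma adjusted p = 0.536), and it was -1.73 without siCont clone 4.

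Tfcp2l1, a naive factor that acts downstream of LIF and STAT3, had levels of 6.29, 5.48, 4.60 and 6.03 in siXist clones 1 to 4. Levels in siCont clones were 6.57, 5.04, 5.90 and 5.20, and the IVF embryos had 6.87, 7.44, 6.99 and 6.79. No clone of either class reached the lowest IVF embryo. The fitted siXist minus IVF difference was -1.42 ± 0.47, a level 2.67-fold lower (limma adjusted p = 0.231). For siCont minus IVF the fit gave -1.34 ± 0.47, a level 2.54-fold lower (limma adjusted p = 0.267). The siXist and siCont clones differed by -0.08 ± 0.47, with a 95% interval from -1.12 to 0.97 (limma adjusted p = 0.950). The other 2 probes of Tfcp2l1 did not all follow. On probe 2, siXist minus IVF was -0.89 ± 0.74 and siCont minus IVF -1.04 ± 0.74. On probe 3, siXist minus IVF was 0.85 ± 1.46 and siCont minus IVF -1.79 ± 1.46, so the siXist clones lay on the opposite side of the IVF mean.

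Zfp42, the zinc finger gene known as Rex1, had levels of 5.72, 5.25, 4.76 and 5.43 in siXist clones 1 to 4. In siCont clones 1 to 4 they were 5.46, 5.12, 4.37 and 5.66, and the IVF embryos had 6.05, 6.01, 6.22 and 5.93. The IVF embryos were close together, with an SD of 0.12, and 3.65% of features had a smaller SD there. All 8 clones were below them. Against IVF embryos, siXist clones differed by -0.76 ± 0.35, a level 1.70-fold lower (limma adjusted p = 0.372). The fitted siCont minus IVF difference was -0.90 ± 0.35, a level 1.87-fold lower (limma adjusted p = 0.309). For siXist minus siCont the fit gave 0.14 ± 0.35, with a 95% interval from -0.65 to 0.92 (limma adjusted p = 0.875).

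The lower position of all 8 clones held for 2 of 9 members, Tfcp2l1 and Zfp42, and for 2.33% of all features. For Tfcp2l1 it held on the brightest probe and not on the other 2 probes. After quantile normalization, with or without normexp background correction, Tfcp2l1 kept it and Zfp42 did not. In the value table of the authors it held for Tfcp2l1 and Esrrb. By class, 5 of 9 members had siXist clones entirely below IVF embryos (Sox2, Esrrb, Tfcp2l1, Zfp42 and Sall4), against 9.58% of all features. Of these, Sox2 had passed the filter on dim probes only through the IVF embryos. Sall4 counts on 3 measured siXist clones, the highest at 4.47 against 4.51 in the lowest IVF embryo, and its dimmer probe overlapped. For siCont clones it was 3 of 9 (Pou5f1, Tfcp2l1 and Zfp42), against 4.79% of all features. Between siXist and siCont clones no member had groups apart in either direction, where 6.41% of all features were lower and 1.62% higher in siXist clones without overlap.

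**Figure D3:**
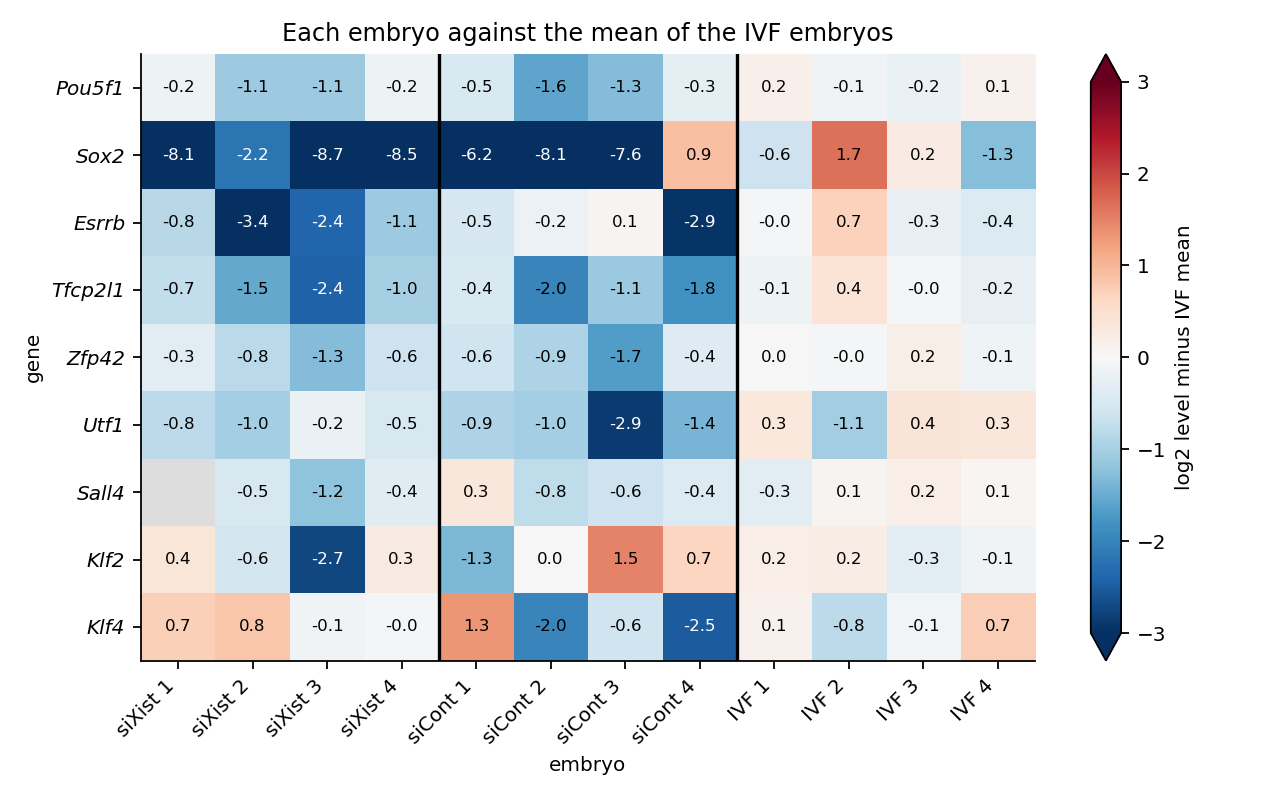
Level of each gene (rows) in each embryo (columns) minus the mean of the 4 IVF embryos, in log2, with blue for lower and red for higher and colours capped at 3; the grey cell is Sall4 in siXist clone 1, where the spot was an outlier. Pou5f1, Tfcp2l1, Zfp42 and Utf1 are below the IVF mean in all 8 clones, and each other gene has clones on both sides of it.

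The promoters of Pou5f1 and Sox2, the pair at the centre of the network, are shown with those of Zfp42 and Tfcp2l1. On the brightest probes the latter pair was below every IVF embryo in all clones. Each line holds the 250 bases before the annotated start, read in the direction of the gene (RefSeq, GRCm38.p6), from the table in which 8 of the 9 genes, all but Sall4, were found. Capitals mark 3 motifs, each searched on both strands. The octamer core, to which POU factors such as Pou5f1 bind, was searched as TTTGCAT. Orphan nuclear receptors such as Esrrb bind a motif that was searched as AGGTCA. The GC box, to which factors of the KLF and SP families bind, was searched as GGGCGG. For Pou5f1 the more upstream of its annotated starts was taken.
Pou5f1 chr17:35505782-35506031 (plus strand): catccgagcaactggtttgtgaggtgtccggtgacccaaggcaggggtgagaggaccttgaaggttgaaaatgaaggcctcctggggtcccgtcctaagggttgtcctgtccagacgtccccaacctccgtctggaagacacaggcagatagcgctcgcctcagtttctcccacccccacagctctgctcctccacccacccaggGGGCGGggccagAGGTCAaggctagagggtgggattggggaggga
Sox2 chr3:34649745-34649994 (plus strand): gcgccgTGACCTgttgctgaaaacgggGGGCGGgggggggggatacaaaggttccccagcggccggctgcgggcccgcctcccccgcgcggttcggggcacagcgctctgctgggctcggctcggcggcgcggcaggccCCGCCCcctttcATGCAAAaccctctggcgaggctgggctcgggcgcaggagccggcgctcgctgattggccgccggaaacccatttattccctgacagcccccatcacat
Zfp42 chr8:43307010-43307259 (minus strand): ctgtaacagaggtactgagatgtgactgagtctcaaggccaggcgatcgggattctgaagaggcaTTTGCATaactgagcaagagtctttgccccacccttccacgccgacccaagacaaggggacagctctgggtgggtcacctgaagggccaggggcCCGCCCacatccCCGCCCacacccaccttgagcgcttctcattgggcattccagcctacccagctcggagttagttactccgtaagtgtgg
Tfcp2l1 chr1:118627695-118627944 (plus strand): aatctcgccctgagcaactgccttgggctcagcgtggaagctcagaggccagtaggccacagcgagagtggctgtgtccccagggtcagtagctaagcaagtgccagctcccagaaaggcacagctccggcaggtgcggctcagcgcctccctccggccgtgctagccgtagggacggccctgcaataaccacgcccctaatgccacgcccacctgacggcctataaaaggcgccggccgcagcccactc

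The octamer core was found in the Sox2 window, beginning at base -99 from the start, and in the Zfp42 window, beginning at base -185. It is present in 4.12% of the 32851 promoter windows of the table. The nuclear receptor motif lay at -33 in Pou5f1 and at -244 in Sox2, and 14.0% of windows hold it. The GC box lay at -45 in Pou5f1, at -223 and -111 in Sox2 and at -91 and -79 in Zfp42, and 32.7% of windows hold it. The GC box was also in the windows of Utf1, Klf2 and Klf4. The Tfcp2l1 window had no match to these letters. These matches describe the sequence and do not show that a factor binds.

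Utf1, a chromatin-associated factor of undifferentiated cells, had levels of -2.97, -3.20, -2.38 and -2.68 in siXist clones 1 to 4. The siCont clones had -3.12, -3.20, -5.06 and -3.59, and the IVF embryos had -1.86, -3.24, -1.80 and -1.85. IVF embryo 2 stood apart from the other 3 IVF embryos and lay below all siXist clones. Against IVF embryos, siCont clones differed by -1.56 ± 0.49, a level 2.94-fold lower (limma adjusted p = 0.227). For siXist minus IVF the fit gave -0.62 ± 0.49 (limma adjusted p = 0.585), and without IVF embryo 2 it gave -0.97, with all 8 clones then below the IVF embryos. The clone classes differed by 0.94 ± 0.49 as siXist minus siCont, with a 95% interval from -0.15 to 2.03 (limma adjusted p = 0.410).

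Sall4, the zinc finger partner of Pou5f1, had levels of 4.38, 3.64 and 4.47 in siXist clones 2 to 4, and the spot of siXist clone 1 was left out as an outlier. Levels in siCont clones were 5.18, 4.09, 4.23 and 4.43, and the IVF embryos had 4.51, 4.92, 5.05 and 4.90. The 3 siXist clones lay below the IVF embryos by a narrow margin, since the highest siXist clone was at 4.47 and the lowest IVF embryo at 4.51. The fitted siXist minus IVF difference was -0.68 ± 0.38 (limma adjusted p = 0.460, with siXist clone 1 missing). For siCont minus IVF the fit gave -0.36 ± 0.36 (limma adjusted p = 0.693), and siXist minus siCont was -0.32 ± 0.38 (adjusted p = 0.713). On the dimmer probe of Sall4 the differences were -0.17 for siXist minus IVF and 0.26 for siCont minus IVF, so the probes disagree in sign for siCont clones.

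Klf2, a Krüppel-like factor of the naive network, had levels of 6.44, 5.54, 3.37 and 6.37 in siXist clones 1 to 4. In siCont clones 1 to 4 they were 4.75, 6.09, 7.57 and 6.74, and the IVF embryos had 6.29, 6.32, 5.76 and 5.99. Of the 8 clones, 3 lay below and 4 above the IVF range. Against IVF embryos, siXist clones differed by -0.66 ± 0.76 (limma adjusted p = 0.712), or by 0.03 without siXist clone 3. The fitted siCont minus IVF difference was 0.20 ± 0.76 (limma adjusted p = 0.928), or -0.23 without siCont clone 3. Between the clone classes siXist minus siCont was -0.86 ± 0.76 (limma adjusted p = 0.608). The dimmer probe of Klf2 gave 0.02 for siXist minus IVF, 0.04 for siCont minus IVF and -0.03 for siXist minus siCont.

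Klf4, a reprogramming factor and Krüppel-like activator, had levels of 4.38, 4.49, 3.55 and 3.62 in siXist clones 1 to 4. The siCont clones had 4.98, 1.68, 3.07 and 1.18, and the IVF embryos had 3.78, 2.88, 3.59 and 4.396. The siCont clones were spread widely, with an SD of 1.70, while the siXist clones had an SD of 0.49 and the IVF embryos 0.62. For siXist minus siCont the fit gave 1.28 ± 0.76, with a 95% interval from -0.41 to 2.98 (limma adjusted p = 0.456). Klf4 differed from IVF embryos by 0.35 ± 0.76 in siXist clones (limma adjusted p = 0.856) and -0.94 ± 0.76 in siCont clones (adjusted p = 0.625). The siCont value was -1.69 without siCont clone 1 and -0.42 without siCont clone 4. Its siXist minus siCont value was the highest of the 9 genes, and it lay between 0.77 and 2.42 in the alternatives run.

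Counted by embryo, the number of members below the lowest IVF embryo was 4 of 8 measured in siXist clone 1, 7 of 9 in siXist clone 2, 7 of 9 in siXist clone 3 and 5 of 9 in siXist clone 4. In siCont clones 1 to 4 it was 6, 6, 6 and 7 of 9. Each count but that of siCont clone 4 includes Sox2, which passed the filter on dim probes only through the IVF embryos. The same count over all features was 24.6%, 40.2%, 49.5% and 32.1% in siXist clones and 21.5%, 33.5%, 27.5% and 32.6% in siCont clones. The share of members was above that of all features in each of the 8 clones. All 8 were set against the same 4 IVF embryos, so these comparisons are not independent. The median SD within IVF embryos was 0.29 for the members and 0.52 over all features, and its part in these counts was not tested. The clones with most features below the IVF range in the siXist class, 2 and 3, were also those with most members below it.

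**Figure D4:**
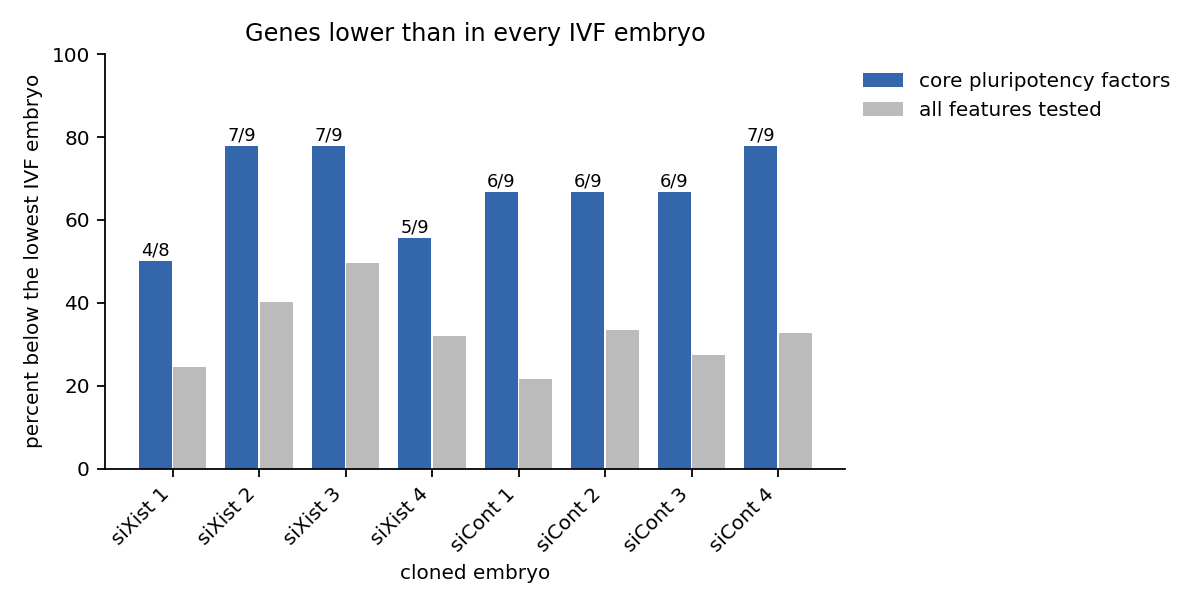
Percent of the pluripotency factors (blue, with their number above the bar) and of all features tested (grey) that were lower in a clone than in each of the 4 IVF embryos, for each siXist and siCont clone. The blue bar is above the grey bar in all 8 clones.

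The spread of the members between embryos was described by their SD within a class. The median SD of the 9 genes was 0.54 in siXist clones, 0.90 in siCont clones and 0.29 in IVF embryos. Over all features it was 0.72 in siXist clones, 0.78 in siCont clones and 0.52 in IVF embryos. Within the IVF class, 0 of 9 members were called between female and male embryos, where 0.0158% of all features were called. The largest of these differences was -0.71 for Utf1, with limma adjusted p = 1.00. Zfp42 alone had both female embryos below both males, which held for 11.7% of all features.

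Across the 12 embryos the levels of Pou5f1 and Zfp42 ran most alike among the members, with Pearson r = 0.84. Zfp42 ranked 38 among 13000 named features by likeness to Pou5f1. The features most like Pou5f1 were Crxos (r = 0.96) and Akna (r = 0.95), and the features most like Sox2 were Oas1d (r = 0.94) and Bend7 (r = 0.91). For Tfcp2l1 they were Gata6 (r = 0.96), a primitive endoderm factor, and Ddx39b (r = 0.96). Esrrb was most like Lgmn (r = 0.95) and Casp6 (r = 0.94), Zfp42 like Bckdhb (r = 0.94) and Klb (r = 0.94), and Utf1 like Spr (r = 0.94) and Zmynd11 (r = 0.94). Klf2 was most like Cdt1 (r = 0.96) and Hmgb2 (r = 0.95), and Klf4 like Frrs1 (r = 0.94) and Tbc1d17 (r = 0.91). Sall4 was left out for its missing value. These are descriptions over 12 arrays that share class, slide and scaling, and the features were picked as the highest of many.

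The wider network was described by 4 lists of other genes. In none of them was a gene called in any of the 3 comparisons. Of 19 partner factors 16 were tested, and at an unadjusted p under 0.05, 2 were higher and 2 lower in siXist than in siCont clones, where 4.39% of all features were higher and 9.5% lower. Against IVF embryos 0 of the partner factors were higher and 2 lower in siXist clones, and 0 higher and 2 lower in siCont clones. Of all features 5.05% were higher and 8.84% lower in siXist clones, and 6.84% higher and 6.73% lower in siCont clones, which also holds for the lists that follow. Their median difference from IVF embryos was -0.35 in siXist clones, beside -0.23 over all features, and -0.35 in siCont clones, beside -0.04. Mybl2, a cell cycle factor, had the smallest p of the list for siXist minus IVF, at -0.95 ± 0.36 (limma adjusted p = 0.279). Rif1, a telomere and replication timing factor, had the smallest p of the partner factors between the clones. It had levels of 2.98, 2.36, 1.92 and 2.47 in siXist clones, against 3.23, 3.72, 3.53 and 3.38 in siCont clones, without overlap (siXist minus siCont -1.03 ± 0.31, limma adjusted p = 0.297).

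Of 18 target and marker genes of the network 15 were tested, and at an unadjusted p under 0.05, 1 was higher and 0 lower in siXist clones than in IVF embryos, with 3 higher and 2 lower in siCont clones than in IVF embryos. Lefty1, a Nodal antagonist and a target of Pou5f1 and Sox2 in embryonic stem cells, had levels of -5.15, -5.56, -0.35 and -5.66 in siXist clones. It had -4.51, -3.10, -1.36 and -1.29 in siCont clones, and was not well above background in any of the 4 IVF embryos. Set against the lowest reliable signal of each IVF array, the level was 3.53-fold higher in siXist clones and 10.8-fold higher in siCont clones. These folds depend on the floor chosen and are not lower bounds. The limma adjusted p was 0.226 for siXist against IVF and 0.109 for siCont against IVF. Lefty1 was the 1 gene of the list that was higher in siXist clones at an unadjusted p under 0.05. With the floor used for Sox2 the differences were 1.43 ± 1.17 for siXist minus IVF (limma adjusted p = 0.603), which no longer passed that unadjusted p, and 3.03 ± 1.17 for siCont minus IVF (adjusted p = 0.299). It passed the filter on dim probes only through the clones, where it is high. Among the siXist clones it was high in clone 3 alone. Dnmt3l, a cofactor of DNA methylation, had the smallest p of the list between the clones, with siXist minus siCont at -0.95 ± 0.34 (limma adjusted p = 0.312).

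Of 12 LIF receptor signalling genes 11 were tested, and their median difference from IVF embryos was 0.32 in siXist clones and 0.45 in siCont clones, beside -0.23 and -0.04 over all features. At an unadjusted p under 0.05, 3 were higher and 1 lower in siXist clones than in IVF embryos, and 2 were higher and 1 lower in siCont clones. Socs3, the feedback inhibitor induced by STAT3, had levels of 7.03, 6.44, 5.14 and 6.39 in siXist clones, 7.14, 5.58, 7.73 and 6.60 in siCont clones, and 4.66, 3.43, 2.41 and 4.52 in IVF embryos. All 8 clones were above all IVF embryos, a position whose share over all features is not given here. Socs3 was named for having the smallest p of the list in both comparisons with IVF embryos. The difference was 2.50 ± 0.65 for siXist minus IVF (limma adjusted p = 0.143) and 3.01 ± 0.65 for siCont minus IVF (adjusted p = 0.0960). Stat3, the transcription factor that LIF activates, had levels of -0.41, 1.69, 2.01 and -0.64 in siXist clones, -0.29, -4.38, -3.59 and -0.79 in siCont clones, and -0.38, 0.08, 0.95 and 1.48 in IVF embryos. It was low in siCont clones 2 and 3, and the difference siXist minus siCont was 2.92 ± 1.02 (limma adjusted p = 0.304), with -2.79 ± 1.02 for siCont minus IVF (adjusted p = 0.285). Of 9 primed pluripotency genes, which mark the later epiblast, 4 were tested and 0 passed an unadjusted p under 0.05 in any of the 3 comparisons. Dnmt3b, a DNA methyltransferase, had the smallest p among them for siXist minus IVF, at -1.63 ± 0.72 (limma adjusted p = 0.375, with siXist clones 1 and 2 and IVF embryo 1 left out as outlier spots). Otx2, a homeobox factor, had it for siCont minus IVF, at -3.25 ± 2.37 (limma adjusted p = 0.581).

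**Figure D5:**
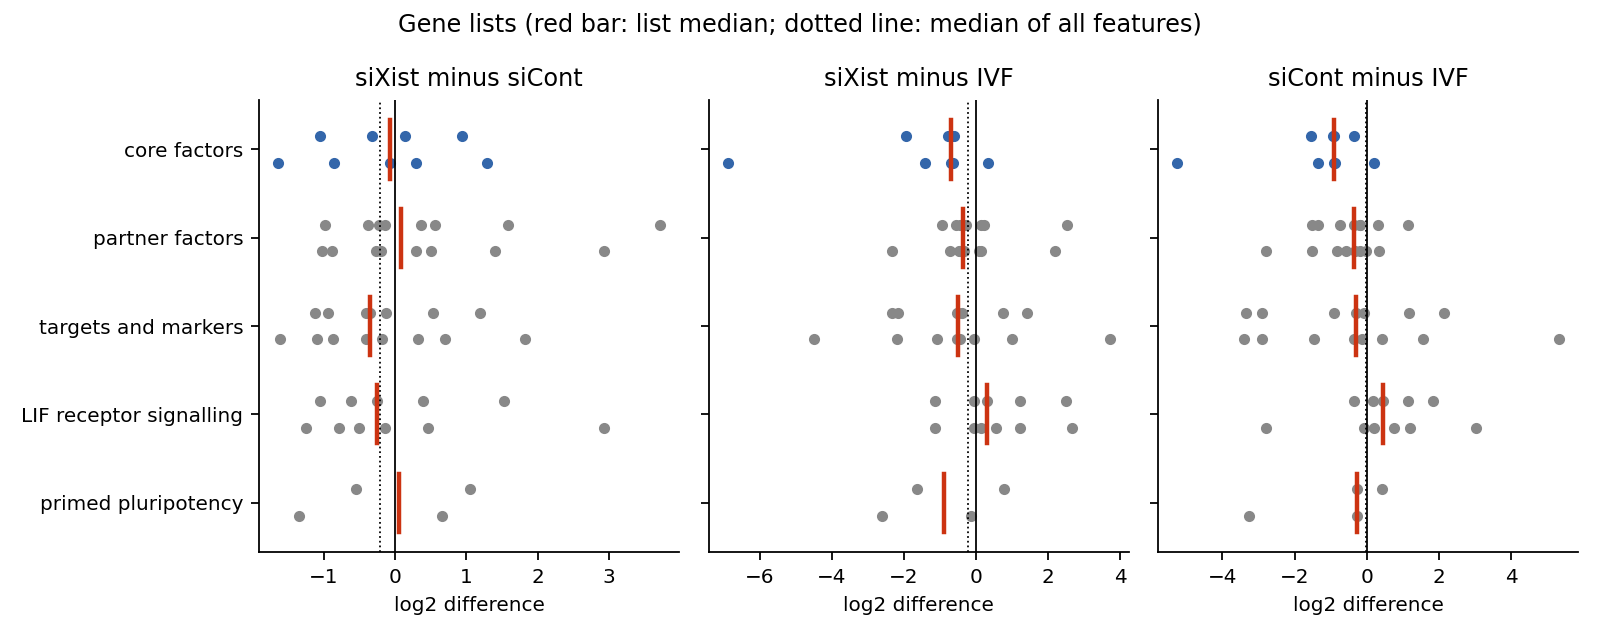
Differences of class means (x axis, log2) of the 9 core factors (blue) and of the genes of 4 related lists (grey) for siXist minus siCont, siXist minus IVF and siCont minus IVF; each point is a gene, the red bar is the list median and the dotted line the median of all features. The core factors have medians of -0.68 and -0.91 against IVF embryos, and the LIF receptor signalling genes 0.32 and 0.45.

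Markers of other cells that could be carried into an embryo were measured beside these genes. The 7 measured Sertoli cell markers, of 11 listed, had a summed level of 0.97 to 4.74 in siXist clones, 2.10 to 5.61 in siCont clones and 2.50 to 4.44 in IVF embryos. The 4 measured cumulus cell markers, of 7 listed, summed to 3.39 to 7.16 in siXist clones, 4.05 to 8.87 in siCont clones and 2.31 to 4.57 in IVF embryos. Among them Ptx3 was well above background in 0 of 3 measured siXist clones, 4 of 4 siCont clones and 1 of 4 IVF embryos. Ptx3 passed the filter on dim probes only through the siCont clones, where it is high. The other measured cumulus cell markers were well above background in all embryos. The 8 measured oocyte markers, of 10 listed, summed to 4.29 to 9.51 in siXist clones, 10.7 to 14.0 in siCont clones and 4.67 to 9.56 in IVF embryos, higher in every siCont clone. That sum is set mostly by Gdf9, with mean levels of 1.99 in siXist clones, 3.14 in siCont clones and 2.20 in IVF embryos. Against IVF embryos 3 of the 8 markers were lower in siCont clones, with a median of 0.76, where 51.9% of all features were lower. Of these 8 markers 1, Oosp1, was called higher in siXist clones than in IVF embryos (siXist minus IVF 2.43, limma adjusted p = 0.044). Of all features 0.578% were called in that comparison. The rest of the list did not follow Oosp1, since 4 of the 8 were lower in siXist clones than in IVF embryos. Their median was 0.03, where 61.7% of all features were lower. The part of these markers in the levels of the pluripotency factors was not tested.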

How the data were processed

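The members and gene lists were chosen with earlier results of these data known. Expression was measured in 12 single embryos, 1 to a single-colour array. Per the labels' protocols, RNA was extracted with TRIzol, amplified in a pair of rounds and labelled with Cy3. Per the file headers, the deposited intensity values came from Agilent Feature Extraction 10.5.1.1, whose processed signal is background-subtracted and not normalized between arrays. The authors also deposited a log2 value table. Its columns equal the log2 signal plus a constant per array, centred on the median of each probe, and the basis of the constants is unknown. The medians of its columns were 0.015, 0.54, -0.18 and -0.22 in siXist clones, -0.048, -0.72, -1.62 and -0.12 in siCont clones, and 0.56, -0.0069, 0.75 and 0.32 in IVF embryos 1 to 4.

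The log2 processed signal was set relative to the 75th percentile of the array. Outlier spots (104 to 515 per array) were left out, saturated spots numbered 0, and spots of a probe were averaged. The filter kept 24840 probes, and the brightest kept probe stood for a gene. Accessions matched to RefSeq (GRCm38.p6) named 26893 probes (65.3%). Probes were not checked for pseudogenes and other near copies. Classes and sexes were taken from the labels. A limma 3.58.1 fit (R 4.3.3) with a mean each for siXist, siCont, male IVF and female IVF, 12 arrays in all, weighted the sexes equally, and eBayes shared the spread. The number of arrays limits the precision. The genes named were all members, the gene with the smallest p of each list of the network in each comparison, the 2 features most like each member, and Xist. Eomes, Cdx2, Gata2, Tfap2a, Krt18, Ptx3, Gdf9 and Oosp1 were chosen after their values were seen. The fit was tested on simulated data. Replicate numbers of different classes did not pair embryos, and the correlations of same-numbered deviations lay between -0.153 and 0.064. Alternatives were normexp (offset 50) on the median signal with quantile normalization, quantile normalization alone, the authors' table, no filter, a stricter filter (6 arrays), a floor, the mean of probes, every probe, array weights, only the classes compared, robust eBayes with a trend, 3 class means, male IVF embryos only, a replicate block and each array left out. Non-overlap under other scalings and without single arrays was counted after seeing the data. Figures were drawn with matplotlib 3.10.9.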

Additional observations from a re-analysis of the deposited data

Results flagged for a closer look

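Of 38 groups of 4 embryos tested by Dixon's gap criterion, 3 had an embryo apart from the other 3, and chance flags about 1 in 20 groups. Sox2 was at -2.35 in siXist clone 2, while the other siXist clones lay between -8.86 and -8.30, all below background. Tfcp2l1 probe 3 was at -3.66 in siXist clone 1, while the other siXist clones lay between 0.51 and 1.097. Utf1 was at -3.24 in IVF embryo 2, while the other IVF embryos lay between -1.86 and -1.80.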

How the results depend on the processing

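No member was called in any alternative run, 25 for siXist against siCont clones and 26 for each clone class against IVF embryos. Of 693 recomputed member differences 19 changed sign, and the cause was not tested. For siXist minus siCont, Tfcp2l1 became 0.14 with array weights, 1.06 in the authors' table, 0.91 with the mean of kept probes, 0.31 with normexp and quantile normalization, 0.28 with quantile normalization, 0.22 without siCont clone 1 and 0.26 without siXist clone 3. Sall4 became 0.77 in the authors' table, 0.066 with normexp and 0.12 with quantile normalization, Klf2 0.27 and Esrrb 0.088 in the authors' table, and Sox2 0.41 without siCont clone 4. Zfp42 became -0.12 without siCont clone 3 and -0.01 without siXist clone 1. Klf2 became -0.90 in the authors' table and -0.23 without siCont clone 3 for siCont minus IVF, and 0.027 without siXist clone 3 for siXist minus IVF. Klf4 became -0.032 without IVF embryo 2 for siXist minus IVF. With each array left out in turn, these differences ranged for siXist minus siCont from -0.31 to 0.26 (Tfcp2l1), -3.20 to 0.41 (Sox2) and -0.12 to 0.31 (Zfp42). They ranged from -0.23 to 0.71 (Klf2, siCont minus IVF), -0.997 to 0.027 (Klf2, siXist minus IVF) and -0.032 to 0.73 (Klf4, siXist minus IVF). The authors' table shifts the median of all features by -1.13 for siCont minus IVF, -0.19 for siXist minus IVF and 0.93 for siXist minus siCont. There, 8 members were lower in siCont clones than in IVF embryos and 3 higher in siXist than in siCont clones at an unadjusted p under 0.05.

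Over all features, 2 were called for siXist against siCont clones. The count was 5 with 3 class means, 19 in the authors' table, 5 with every kept probe, 4 with the floor, 0 with normexp, 12 with only the classes compared, 4 with quantile normalization and 0 with the replicate block, and 8 to 56 with an array left out. For siCont clones against IVF embryos it was 79, and 18 with male IVF embryos only, 45 with the stricter filter, 12 with the replicate block and 33 to 106 with an array left out. For siXist clones against IVF embryos it was 110, and 21 with male IVF embryos only, 248 with array weights, 51 with the stricter filter, 42 in the authors' table, 13 with the replicate block and 34 to 127 with an array left out. Of the calls for siCont against IVF, 54.4% were higher, against 12.7% in the authors' table and 42.1% with normexp. For siXist against IVF 49.1% were higher, 61.0% with quantile normalization and 37.3% with no filter. The replicate block changed no member's call.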
